A study of Mus musculus with 11 samples.

Results

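The 9 genes described here are S1pr1, S1pr4, S1pr5, Ccr2, Ccr7, Cxcr3, Cxcr4 and Cxcr6, which encode receptors for sphingosine 1-phosphate (S1P) and chemokines, and Klf2, which encodes a transcription factor upstream of several of them. They were chosen by gene name from a table of 54532 genes, and all 9 were among the 13129 genes with enough counts to be tested. The cells were CD8+ Tregs, T cells of the spleen positive for CD8, CD44, Ly49 and CD122, which were enriched with CD8 beads and FACS sorted from wild-type mice (C57BL/6J in the study's methods), with no treatment named. There were 3 young male, 3 young female, 2 middle-aged male and 3 middle-aged female libraries. By their labels, young mice were 2 to 3 months old and the others 10 to 12 months old, an age that the labels call Old and the study calls middle-aged. Libraries are named below by sex and by the replicate number in their labels. The study describes each library as an independent replicate, and whether cells of several mice were pooled is not given in the sources used here.

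S1P is a lipid that is abundant in blood and lymph and scarce inside lymphoid tissue, and T cells follow this gradient through G protein-coupled receptors to leave an organ. S1pr1 is the main exit receptor of T cells, S1pr4 is a hematopoietic S1P receptor, and S1pr5 is best known from NK cells, patrolling monocytes and cytotoxic effector T cells. Klf2 activates S1pr1, T-bet is known upstream of S1pr5 and Cxcr3, and Cd69 removes S1pr1 protein from the surface. Chemokine receptors read protein gradients in the same manner. Ccr7 guides cells to the T cell zone, Cxcr4 binds Cxcl12 in bone marrow, and Ccr2, Cxcr3 and Cxcr6 are receptors of memory and effector T cells for inflammatory or tissue chemokines.

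S1pr5 and Cxcr6 were the 2 members with the largest age difference in level, and both were higher in middle-aged cells. Mean S1pr5 was 3.76-fold higher in middle-aged than in young libraries, with no overlap between the ages. Mean Cxcr6 was 1.74-fold higher, with overlap. The exit receptor S1pr1, its regulator Klf2, S1pr4, Ccr7, Cxcr3 and Cxcr4 had age differences smaller than their SE, and Ccr2 had one of about 2 SE that rested in part on 1 library. After adjustment over all tested genes, 0 of the 9 members passed edgeR's quasi-likelihood test at 0.05, where 3 genes of 13129 did (0.0229%). At an unadjusted p under 0.05, 2 members were higher (S1pr5 and Cxcr6), beside 2.00% of all tested genes, and 0 were lower, beside 0.990%. With DESeq2's Wald test 1 member passed after adjustment (S1pr5), beside 0.860% of the genes it tested, and with limma voom 2 did (S1pr5 and Cxcr6), beside 1.04%. One member, S1pr5, had every middle-aged library above every young one, beside 1.02% of all tested genes, and 0 members had every middle-aged library below, beside 0.297%.

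The libraries held 6135736 to 24394532 counts, and 2 of them, young male 1 and young female 1, held under 10000000. All 8 markers of the sorted cells were expressed, with sums of 5087 to 6988 CPM (counts scaled to library size with TMM factors) in young and 5189 to 7391 in middle-aged libraries. Middle-aged female 2 stood apart by myeloid markers, with a sum of 2858 CPM against 199.8 to 418.1 in the other middle-aged libraries, and by plasma cell markers. NK cell markers summed to 417.3 to 1033 CPM in young libraries and to 137.3 to 206.4 CPM in middle-aged libraries other than female 2, which had 753.2. Erythroid and platelet genes, mostly hemoglobins, summed to 27.76 to 154.9 CPM in the young and 1.045 to 31.43 CPM in the middle-aged libraries. B cell markers had 132.5 to 401.7 and 171.5 to 606.5 CPM. The share of counts on genes with transcripts over 3000 bases was 45.3 to 51.7% in the libraries numbered 1, 57.4 to 60.1% in those numbered 2 and 63.7 to 64.8% in those numbered 3. In such bulk samples, fewer cells of a type and less RNA per cell cannot be told apart.

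The promoters of the 2 members with the largest differences, S1pr5 and Cxcr6, and of S1pr4, an S1P receptor gene with no such difference, are shown as the 250 bases before the gene start in RefSeq (build GRCm38.p6). They lie at chr9:21248444-21248693 (minus strand) for S1pr5, chr9:123806227-123806476 (plus strand) for Cxcr6 and chr10:81500138-81500387 (minus strand) for S1pr4, each written 5′ to 3′ on the gene's own strand. Capitals mark CACCC boxes (CACCC, or GGGTG on the opposite strand), the kind of element that Kruppel-like factors bind.
S1pr5: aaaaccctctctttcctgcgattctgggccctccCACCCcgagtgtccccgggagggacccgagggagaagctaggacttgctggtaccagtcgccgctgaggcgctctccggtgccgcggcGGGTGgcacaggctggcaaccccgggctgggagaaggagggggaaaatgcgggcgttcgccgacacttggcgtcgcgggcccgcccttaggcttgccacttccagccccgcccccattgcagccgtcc
Cxcr6: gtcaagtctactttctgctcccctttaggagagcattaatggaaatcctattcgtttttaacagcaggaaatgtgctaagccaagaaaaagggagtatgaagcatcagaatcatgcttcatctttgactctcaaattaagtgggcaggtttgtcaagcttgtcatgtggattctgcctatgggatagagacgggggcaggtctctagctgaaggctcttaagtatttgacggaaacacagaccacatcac
S1pr4: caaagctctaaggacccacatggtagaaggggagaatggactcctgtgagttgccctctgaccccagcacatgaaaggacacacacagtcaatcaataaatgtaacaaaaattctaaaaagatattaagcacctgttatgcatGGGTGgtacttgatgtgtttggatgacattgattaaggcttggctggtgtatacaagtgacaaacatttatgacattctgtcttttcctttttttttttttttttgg
The S1pr5 window held 2 CACCC boxes, 216 and 128 bases before the start, the S1pr4 window held 1 at 107 bases, and the Cxcr6 window held 0. Of all 32851 promoter windows of this length, 52% held at least 1, so a match is common. A T-box core (TCACAC, or GTGTGA on the opposite strand), the kind that T-bet and Eomes bind, was in 0 of the 3 windows shown, while 12.3% of all windows held it. A FOXO core (TAAACA or TGTTTA) was also in 0 of the 3, while 12% of all windows held it. Matches of the 3 motifs did not overlap. Of the 9 genes, 7 had an entry, among which the Klf2 and Cxcr4 windows held 1 CACCC box each, and the Cxcr3 window held 1 T-box core and 1 FOXO core. S1pr1 and Ccr7 were without an entry.

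Compared per length (CPM per kilobase of gene length, mean ± SD over all 11 libraries), Klf2 had the highest level of the 9 genes, 405 ± 135. Cxcr3 followed at 330 ± 73.5 and Ccr7 at 277 ± 50.2. Cxcr6 and S1pr1 came next, at 208 ± 77.4 and 206 ± 49.8 over both ages, and Cxcr6 was above S1pr1 in 6 of the 11 libraries. S1pr1 was above S1pr4, at 45.9 ± 12, in all 11 libraries. The step from S1pr1 to S1pr4, 4.49-fold, was the only one in this order that held in all of them. S1pr5 had 31.6 ± 22.6 and was below S1pr4 in 8 of 11. Cxcr4 and Ccr2 were lowest, at 13 ± 5 and 10.4 ± 5.49, and stood in this order in 7 of 11. The order differed between ages for 3 of the genes. The mean level per kilobase of S1pr5 was 14.02 in young and 52.7 in middle-aged libraries, below and above that of S1pr4 (47.6 and 43.9). For Cxcr6 it was 155 in the young, below S1pr1 at 205, and 270.1 in the middle-aged, above S1pr1 at 208 and Ccr7 at 256. Ccr2 was below Cxcr4 in the young (8.05 and 13.5) and close to it in the middle-aged (13.2 and 12.5).

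**Figure D1:**
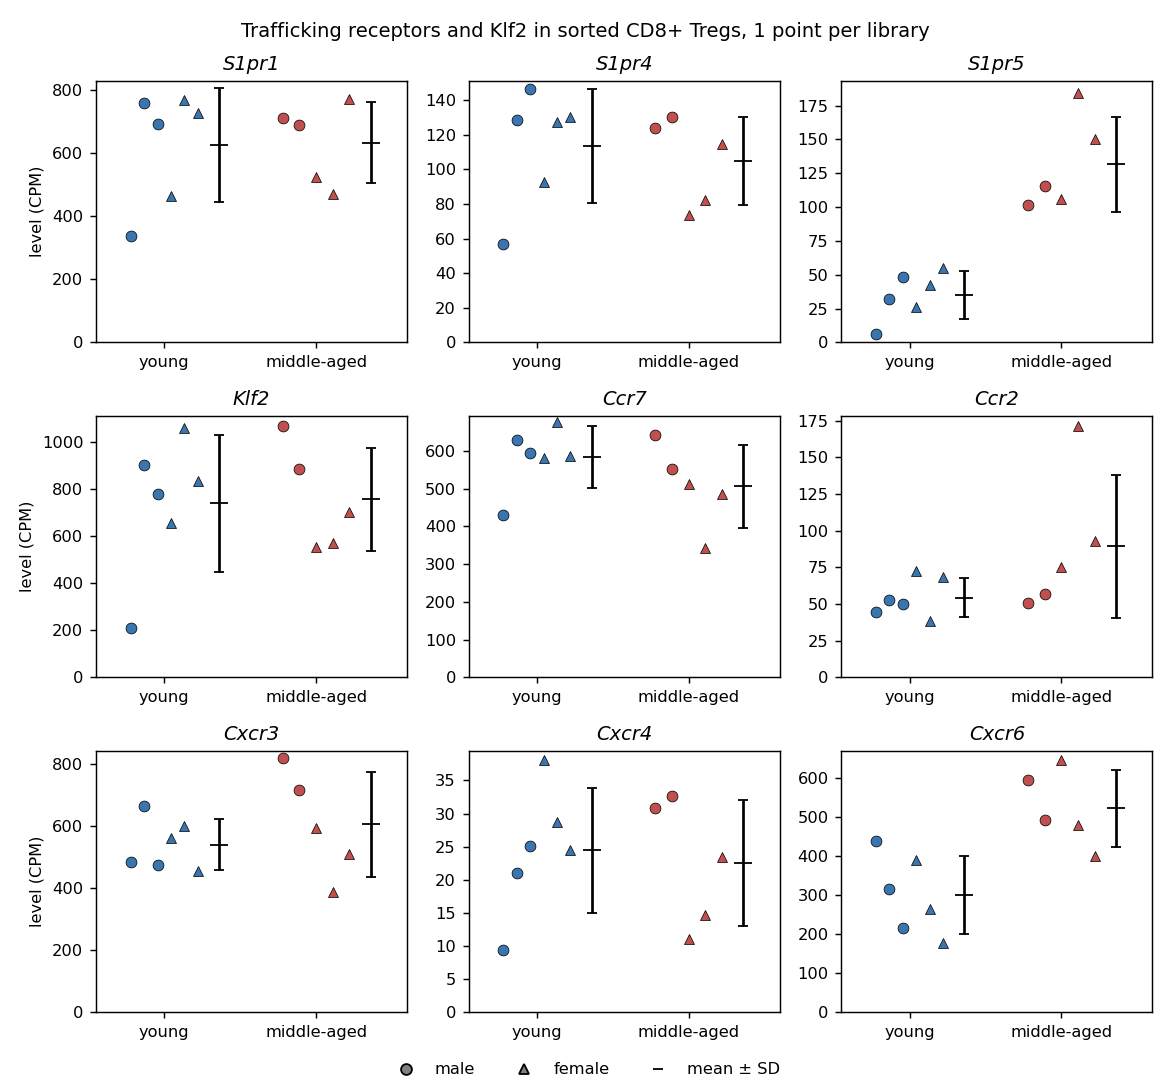
Level of each of the 9 genes (CPM, vertical axes, each panel with its own scale) in the 11 libraries, by age (blue young, red middle-aged), where circles are male and triangles female libraries and the black bars give the mean ± SD of each age. S1pr5 lies between 102 and 184 CPM in the middle-aged libraries and at 55.1 CPM or less in the young ones, while the ages overlap in the other panels.

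S1pr5 (ENSMUSG00000045087, GRCm38 chr9:21242912-21248443, minus strand) was low in young CD8+ Tregs. It had 5.96, 32.4 and 48.1 CPM in young males 1, 2 and 3, and 26.4, 42.2 and 55.1 CPM in young females 1, 2 and 3. It had 102 and 116 CPM in the 2 middle-aged males and 106, 184 and 150 CPM in middle-aged females 1, 2 and 3. The lowest middle-aged library was thus above the highest young one, in both sexes, and young male 1, the shallowest library with 33 counts on the gene, was the lowest of all. The means were 35.05 ± 17.6 CPM (SD, n = 6) and 131.7 ± 35.1 CPM (SD, n = 5). The fitted log2 difference was 1.86 (SE 0.42), which ranked 30th by p among the tested genes, with an adjusted p of 0.3212 in edgeR's quasi-likelihood test. The exact two-sided permutation test gave p = 0.00216, the smallest that 6 against 5 libraries allow (unadjusted, 9 genes tested).

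The S1pr5 difference had a similar size in males (log2 1.91, SE 0.76) and females (1.84, SE 0.39), and the interaction of age and sex was -0.07 (SE 0.87, adjusted p 0.9999 in edgeR). Among libraries of the same replicate number it was 3.04, 1.98 and 1.54 for numbers 1, 2 and 3, and every middle-aged library was above every young one within each number. Number 3 held only 1 middle-aged library, a female, against 2 young libraries, 1 of each sex. In the 9 libraries with over 10000000 counts the difference was 1.51 (SE 0.23) with an edgeR adjusted p of 0.0623. Those 9 lack both young libraries numbered 1 but keep the middle-aged ones numbered 1. DESeq2 gave 1.86 (adjusted p 0.00457) and limma voom 1.604 (adjusted p 0.00462), which both passed. Leaving out 1 library at a time gave 1.67 (without young male 1) to 2.09 (without young male 3), with edgeR adjusted p from 0.1154 to 0.8911.

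S1pr5 is also a gene of NK cells and patrolling monocytes, so its values stand here beside those of their markers. Of 8 tested NK cell markers, 5 had an unadjusted p under 0.05 in edgeR, all 5 lower in middle-aged libraries, beside 0.990% of all tested genes. Among the 5 were the NK receptor gene Ncr1 (mean 70.3 CPM in young, 18 in middle-aged) and the granzyme gene Gzma (326 and 94.7). The 4 middle-aged libraries with the lowest NK marker sums had 102 to 150 CPM of S1pr5. The part of NK cell RNA in the S1pr5 values was not tested. Of 9 myeloid markers, 3 were higher in middle-aged libraries at an unadjusted p under 0.05 in edgeR, namely Lyz2, S100a8 and S100a9, beside 2.00% of all tested genes. Their highest values, 1060, 700 and 763 CPM, were all in middle-aged female 2, where the middle-aged means were 323, 157 and 169 CPM. Fcer1g, Itgam and Adgre1 had lower means in middle-aged than in young libraries. Middle-aged female 2, with the highest myeloid sum, also had the highest S1pr5. Without this library the middle-aged mean was 118.5 ± 22 CPM (SD, n = 4) and the log2 difference 1.77. Csf1r, a growth factor receptor gene of monocytes, had a young mean of 17.1 CPM and a middle-aged mean of 19.1 CPM. Cx3cr1, a gene of patrolling monocytes, had 4.49 ± 4.16 and 11 ± 17.8 CPM. Its ranges overlapped, 0 to 10.5 CPM in young and 0 to 42.4 CPM in middle-aged libraries (log2 0.42, SE 1.3). The part of the myeloid cell RNA in the S1pr5 difference was not tested. S1pr5 overlaps Gm48303, a predicted gene on the opposite strand, by 51 exonic bases, and Gm48303 had at most 21 counts in a library.

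Between S1pr5 and the other S1P receptor genes the ratio differed between ages. The ratio of S1pr5 to S1pr1, each per length, was 0.0216 to 0.0923 in young (median 0.0681) and 0.174 to 0.476 in middle-aged libraries (median 0.237). The ratio of S1pr5 to S1pr4 was 0.100 to 0.405 in young and 0.783 to 2.13 in middle-aged libraries. Neither ratio overlapped between ages. S1pr4 to S1pr1, by contrast, gave 0.211 to 0.270 in young and 0.179 to 0.240 in middle-aged libraries, with medians of 0.222 and 0.223. These ratios carry the S1pr5 difference already described and were not tested separately.

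**Figure D2:**
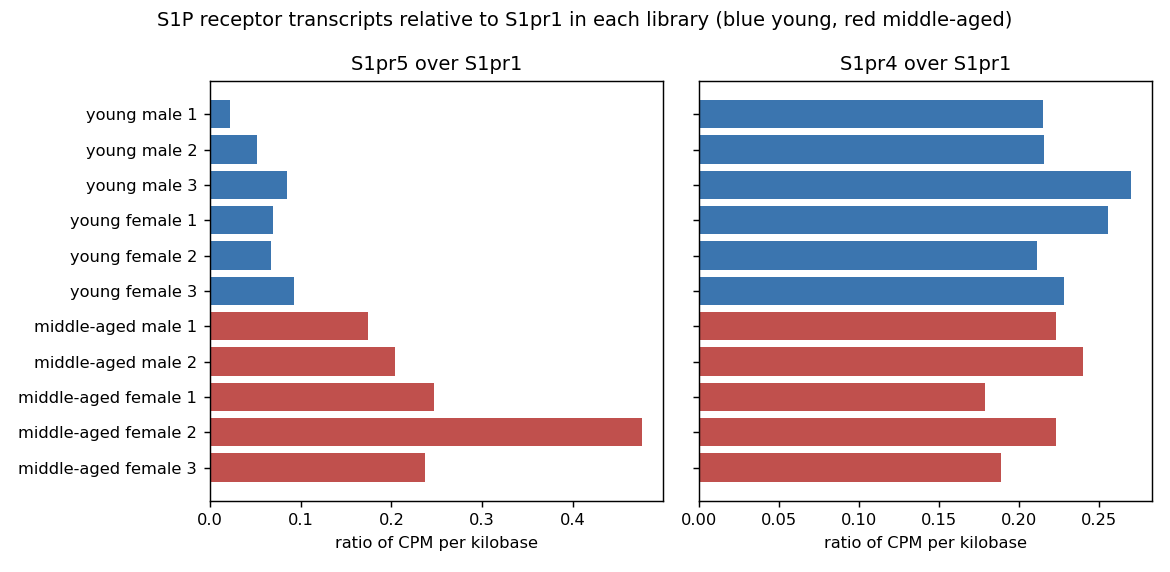
Ratio of S1pr5 to S1pr1 (left) and of S1pr4 to S1pr1 (right), each gene in CPM per kilobase (horizontal axes), with 1 bar per library, blue for young and red for middle-aged. The S1pr5 ratio is higher in every middle-aged library, with medians of 0.237 against 0.0681, while S1pr4 over S1pr1 has medians of 0.223 and 0.222.

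S1pr1 itself (ENSMUSG00000045092, chr3:115710433-115715072, minus strand) was one of the more abundant members. Young libraries ranged from 336.4 to 769.4 CPM and middle-aged libraries from 471.3 to 772.7 CPM. The ranges overlapped almost entirely, with means of 625 ± 181 (SD, n = 6) and 634 ± 129 CPM (SD, n = 5). The log2 difference was 0.02 (SE 0.26, edgeR adjusted p 1), and its sign turned to -0.02 when counts were scaled by library size alone, so no direction is given. S1pr4 (ENSMUSG00000044199, chr10:81497747-81500132, minus strand) had 56.7 to 146.2 CPM in young and 73.4 to 129.9 CPM in middle-aged libraries. Its log2 difference was -0.12 (SE 0.27, edgeR adjusted p 1). Young male 1 had the lowest level of both genes.

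Of the other S1P receptor genes, S1pr2 had 19.3 ± 6.91 CPM in the young (SD, n = 6) and 22.9 ± 7.25 CPM in middle-aged libraries (SD, n = 5), and S1pr3 was near 0, with means of 0.500 and 2.26 CPM. S1pr2 encodes a receptor known to restrain migration. The 5 S1P receptor genes had a median log2 difference of 0.24, that of S1pr2 (SE 0.31), beside a median of 0.00278 over all 13129 tested genes. Of the 5, 4 were above 0, beside 6616 of all tested genes. Among these 4, S1pr1 was at 0.02 (SE 0.26), and S1pr3 had an SE of 1.7. Of the 5, 1 (S1pr5) was higher at an unadjusted p under 0.05 in edgeR, beside 2.00% of all tested genes. Of 15 genes that make, degrade or transport S1P, 10 were tested and 0 passed at an unadjusted p under 0.05 in edgeR, with a median of 0.09.

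Klf2 (ENSMUSG00000055148, chr8:72319033-72321656, plus strand) ranged from 209.4 to 1060 CPM in young and from 552.8 to 1070 CPM in middle-aged libraries. The low value was that of young male 1, and the other 10 libraries lay at 552.8 CPM or above. The means, 741 ± 293 (SD, n = 6) and 757 ± 220 CPM (SD, n = 5), differed by far less than their spread, with a log2 difference of 0.03 (SE 0.36, edgeR adjusted p 1). Its sign turned to -0.03 with library size scaling and to -0.20 without young male 1. Of the 15 Kruppel-like factor genes and upstream regulators, all were tested, 8 were above 0 and 7 below, with a median log2 difference of 0.01. One of them, Klf10, a factor of the TGF-beta response, was higher at an unadjusted p under 0.05 (edgeR p 0.007729), beside 2.00% of all tested genes. It had 31.8 to 71.2 CPM in young and 63.4 to 95.35 CPM in middle-aged libraries, and its log2 difference of 0.78 had an edgeR adjusted p of 0.7407 and a voom adjusted p of 0.0391. Foxo1, which activates Klf2 in T cells, had a log2 difference of -0.03 (edgeR adjusted p 1).

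Ccr7 (ENSMUSG00000037944, chr11:99144196-99155077, minus strand) was abundant at both ages. It ranged from 430.1 to 675.9 CPM in young and from 341.4 to 641.2 CPM in middle-aged libraries, and the lowest value was that of middle-aged female 2. The log2 difference was -0.20 (SE 0.21, edgeR adjusted p 1), which became -0.09 without that library. Among the 6 naive T cell markers, which include Ccr7, sums were 2685 to 4880 CPM in the young and 3146 to 4166 CPM in the middle-aged libraries. Of these 6 genes, 2 were lower at an unadjusted p under 0.05 in edgeR, Lef1 and Dapl1, beside 0.990% of all tested genes. The transcription factor gene Lef1 had a log2 difference of -0.47 (SE 0.20, edgeR unadjusted p 0.03812, adjusted p 1).

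Cxcr6 (ENSMUSG00000048521, chr9:123806475-123811760, plus strand), the receptor for Cxcl16, was higher in middle-aged CD8+ Tregs. It had 437.7, 314.4 and 216.5 CPM in young males 1, 2 and 3 and 390.0, 264.9 and 176.1 CPM in young females 1, 2 and 3. It had 593.2 and 492.0 CPM in middle-aged males 1 and 2 and 645.6, 478.7 and 398.7 CPM in middle-aged females 1, 2 and 3. Within each sex every middle-aged library was above every young one, and the ages overlapped only because young male 1 was above middle-aged female 3. The same order held in males for S1pr5, Cxcr3 and Cxcr4 and in females for S1pr5 and Ccr2. Its share over all tested genes was not counted. The means were 299.9 ± 101 CPM (SD, n = 6) and 521.6 ± 97.9 CPM (SD, n = 5). The log2 difference was 0.82 (SE 0.26), 146th by p, with an adjusted p of 0.8235 in edgeR's quasi-likelihood test. The exact two-sided permutation test gave p = 0.0108 (unadjusted, 9 genes tested).

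Within replicate numbers, every middle-aged library was above every young one for Cxcr6, with log2 differences of 0.58, 0.75 and 1.03 for numbers 1, 2 and 3. Among the other members, S1pr5 had this order in 3 numbers and S1pr1, Ccr2 and Cxcr3 in 2. The share of all tested genes with it was not counted. Number 3 held only 1 middle-aged library, a female, against 2 young libraries, 1 of each sex. The level also differed between numbers, since both young libraries numbered 1 were above both numbered 2, which were above both numbered 3, and the share of counts on long genes differed in the reverse order. The part of that share in the Cxcr6 values was not tested. The difference was 0.75 (SE 0.40) in males and 0.89 (SE 0.37) in females, and 1.11 (SE 0.22, edgeR adjusted p 0.1467) in the 9 libraries over 10000000 counts. Those 9 lack both young libraries numbered 1 but keep the middle-aged ones numbered 1, so age and number are not balanced in them. With limma voom it was 1.02 (adjusted p 0.0217), which passed. Leaving out 1 library at a time gave 0.69 to 0.98, with edgeR adjusted p from 0.4762 to 1. Cxcr6 lies inside Fyco1, on the opposite strand, with 0 shared exonic bases, and Fyco1 had a log2 difference of -0.36 (edgeR unadjusted p 0.3928).

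Cxcr3 (ENSMUSG00000050232, chrX:101731535-101734269, minus strand), the receptor for interferon-induced chemokines, had 456.3 to 666.0 CPM in young and 387.8 to 822.2 CPM in middle-aged libraries. The middle-aged range enclosed the young one, and middle-aged female 2 had the lowest value. The log2 difference was 0.16 (SE 0.22, edgeR adjusted p 1). The ratio of Cxcr6 to Cxcr3 per length was 0.346 to 0.810 in young (median 0.416) and 0.616 to 1.11 in middle-aged libraries (median 0.701), with overlap.

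Ccr2 (ENSMUSG00000049103, chr9:124101950-124113557, plus strand), the receptor for Ccl2, had 38.1 to 72.3 CPM in young and 50.5 to 171.6 CPM in middle-aged libraries. The highest value was that of middle-aged female 2, the library with the highest myeloid marker sum, and the other middle-aged libraries lay at 50.5 to 92.8 CPM. The means were 54.4 ± 13.4 CPM (SD, n = 6) and 89.4 ± 48.8 CPM (SD, n = 5), and the log2 difference was 0.58 (SE 0.29, edgeR adjusted p 1). Without middle-aged female 2 the log2 difference was 0.32, and the middle-aged mean was 68.9 ± 19.1 CPM (SD, n = 4). Ccr2 is a gene of inflammatory monocytes, and the part of their RNA in the value of that library was not tested. Of the 31-base stretches of Ccr2 transcripts, 3.48% occur in other genes, so some of its reads may not be assigned with certainty.

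**Figure D3:**
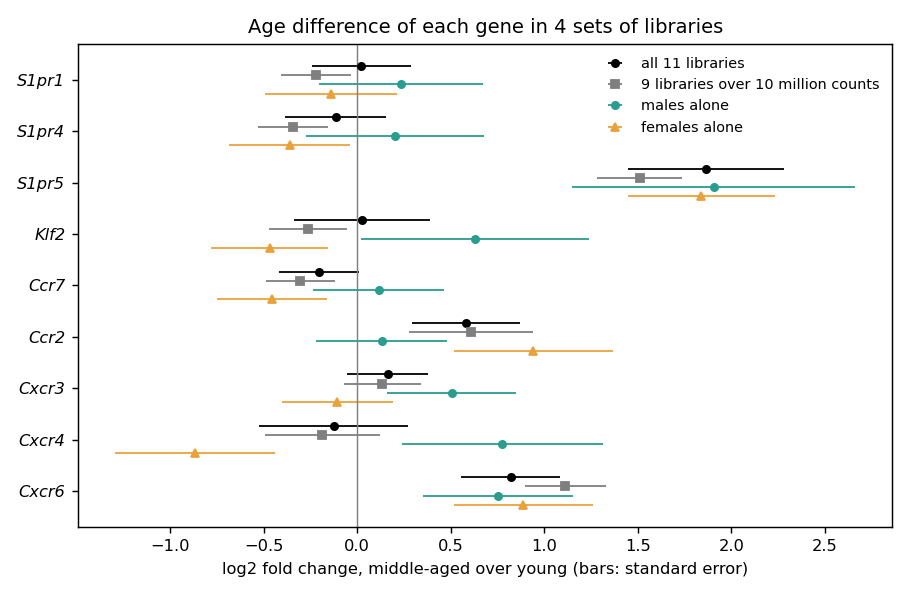
Log2 fold change of each of the 9 genes, middle-aged over young (horizontal axis), with bars of 1 SE, in all libraries, in males, in females and in the 9 libraries with over 10000000 counts. Those 9 lack both young libraries numbered 1. S1pr5 (1.86), Cxcr6 (0.82) and Ccr2 (0.58) are above 0 in every fit shown, Ccr2 by less than 1 SE in males (0.13). Cxcr4 has 0.78 in males and -0.87 in females.

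Cxcr4 (ENSMUSG00000045382, chr1:128588199-128592293, minus strand) differed little between ages over both sexes, but in opposite directions within each. In males it had 9.39, 21.0 and 25.0 CPM in the young libraries and 30.8 and 32.7 CPM in the middle-aged ones. In females it had 38.0, 28.8 and 24.5 CPM in the young libraries and 11.1, 14.7 and 23.5 CPM in the middle-aged ones. The ages did not overlap in either sex, and the order was reversed between them, although young female 3 and middle-aged female 3 lay only about 1 CPM apart. The lowest young male value and the highest young female value were those of young male 1 and young female 1, the shallowest libraries. With so few libraries per sex, separation was not particular to Cxcr4. S1pr5 and Cxcr6 had it in both sexes, Cxcr3 in males, and Ccr7 and Ccr2 in females. The share of all tested genes with separation in a sex was not counted. The log2 difference was -0.13 over all libraries (SE 0.40), 0.78 in males (SE 0.54) and -0.87 in females (SE 0.43). The interaction term was -1.66 (SE 0.66) with an unadjusted p of 0.02901 and an adjusted p of 0.9999 in edgeR. At an unadjusted p under 0.05, 1 of the 9 members (Cxcr4) and 158 of the 13129 tested genes had an interaction, and after adjustment 0 members and 0 genes did (0%). The exact permutation test over 200 arrangements of ages within sexes gave p = 0.015 for this difference between females and males of -1.82 in mean log2 CPM (unadjusted, 9 genes tested). This was the smallest p of the 9. The arrangements assume no age difference in either sex, so this is not a test of the interaction alone.

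Sex itself separated none of the 9 genes after adjustment in edgeR's test, where 5 of 13129 genes passed (0.0381%), and 0 members had an unadjusted p under 0.05, beside 99 genes in all. The closest was Ccr2, with a log2 difference of 0.63 in females over males (SE 0.29, edgeR adjusted p 1).

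Across the whole chemokine receptor family, 24 genes, 15 were tested, of which 10 were above 0 and 5 below. Over all 13129 tested genes, 6616 were above 0 and 6513 below, with a median log2 difference of 0.00278. The family median of 0.42 was the value of Cx3cr1, which had an SE of 1.3. Some of the family genes above 0 were near 0 CPM with a large SE, such as Ccr1 with means of 0.81 and 2.97 CPM (SE 1.44). At an unadjusted p under 0.05 in edgeR, 2 were higher, among them Cxcr6, beside 2.00% of all tested genes. Lower was 1 (Ccr9), beside 0.990%, and 0 passed after adjustment. Ccr9, which guides cells to the small intestine, had 12.5 ± 8.44 CPM in the young (SD, n = 6) and 2.09 ± 1.64 CPM in middle-aged libraries (SD, n = 5), with a log2 difference of -2.62 (SE 0.92, edgeR adjusted p 1). Young male 1 had 0.181 CPM of Ccr9, so the ages overlapped. Of 11 chemokine ligand genes of these receptors, 2 were tested, and neither had an unadjusted p under 0.05 in edgeR.

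**Figure D4:**
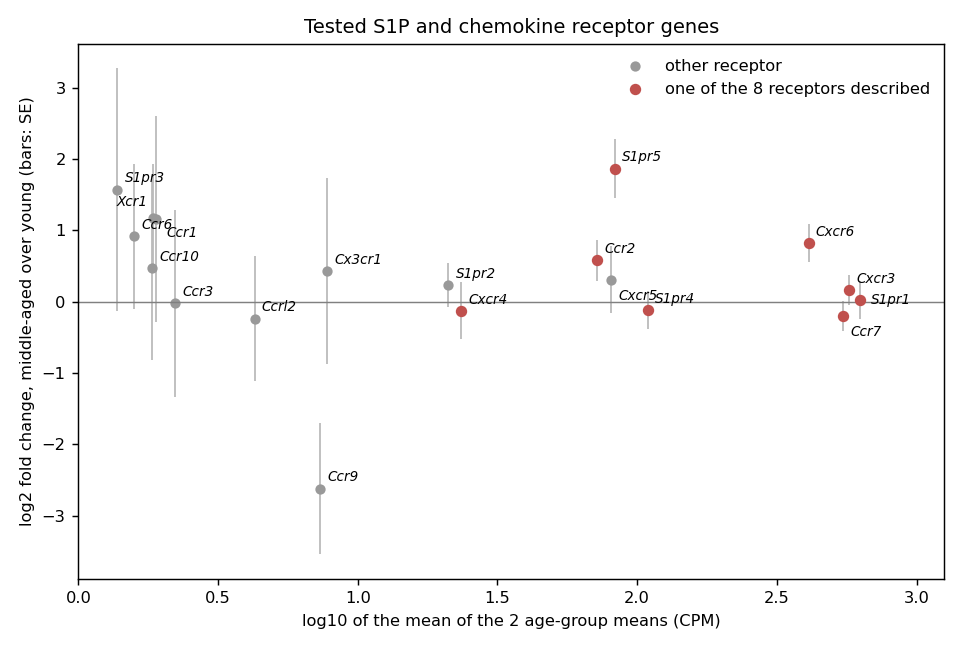
Log2 fold change, middle-aged over young, with bars of 1 SE (vertical axis) against level (horizontal axis, log10 of the mean of both age means in CPM) for tested S1P and chemokine receptor genes, with the 8 receptor genes described here in red. S1pr5 at 1.86, Cxcr6 at 0.82 and Ccr2 at 0.58 lie above 0 by over 2 SE, and Ccr9 at -2.62 lies below by over 2 SE.

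Downstream of the receptors, 23 of 26 genes for G proteins, their regulators (Rgs genes), arrestins and receptor kinases were tested. Their median log2 difference was 0.12, and 1 was higher at an unadjusted p under 0.05 in edgeR, beside 2.00% of all tested genes. This was Gng2, a G protein gamma subunit gene. It had 39.2 to 58.7 CPM in young and 61.85 to 95.9 CPM in middle-aged libraries, without overlap, beside 1.02% of all tested genes. Its log2 difference was 0.67 (SE 0.20), with an edgeR adjusted p of 0.6435 and a voom adjusted p of 0.021. Voom also passed Gna12 (-0.75, adjusted p 0.0393), a G protein alpha subunit gene whose edgeR adjusted p was 1. Of 25 tested genes of the migration machinery 0 had an unadjusted p under 0.05 in edgeR, with a median log2 difference of -0.02.

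Of 17 genes of egress and tissue retention, all were tested. At an unadjusted p under 0.05 in edgeR, 1 was higher and 1 lower, beside 2.00% and 0.990% of all tested genes. The higher one was Itga1, the collagen-binding integrin of tissue-resident T cells, with 0 to 4.45 CPM in young and 2.23 to 23.3 CPM in middle-aged libraries (log2 2.27, SE 0.92, edgeR adjusted p 1). The lower one was Lef1. Cd69 had a log2 difference of -0.23 (SE 0.26), and its ranges overlapped. The T-box factor genes had values of 125.1 to 377.7 CPM in young and 321.3 to 481.5 CPM in middle-aged libraries for Tbx21 (log2 0.45, SE 0.32) and of 72.6 to 218.4 CPM and 154.7 to 332.1 CPM for Eomes (log2 0.61, SE 0.31). Both overlapped between ages, and both had an edgeR adjusted p of 1.

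The genes whose profile over the 11 libraries was most like that of each member were found among 8329 genes with a mean of at least 10 CPM, by the mean absolute difference of centred log2 CPM. For S1pr5 the nearest were Lair1 (0.288) and Bcl3 (0.377), where S1pr5 itself deviated from its mean by 1.06 on average. For Cxcr6 they were 2010300C02Rik (0.169), Pla2g16 (0.169) and Tpd52 (0.187), against its own 0.474. The gene nearest to S1pr4 was S1pr1 (0.123, against 0.357). Such likeness describes these libraries, which differ in depth and replicate number, and was not tested.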

How the data were processed

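RNA of FACS-sorted splenic CD8+ Tregs was extracted with a column kit and made into libraries with a SMARTer low-input kit. The authors deposited counts, whole numbers of reads per Ensembl gene, not normalized, with GRCm38 coordinates and gene length, and 0 sample columns were left unused. The submitters' processing notes name kallisto and mm10. Their roles, the counting program and strandedness are not given in the sources used here, so reads of paralogs or opposite-strand genes cannot be assigned with certainty.

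The 9 genes and the lists were chosen with earlier results of these data known. Genes kept by filterByExpr on age (minimum count 10, minimum total count 15) were tested in R 4.3.3 with edgeR 4.0.16 (TMM factors, robust glmQLFit, glmQLFTest) on age with sex as a term, over all 11 libraries. P values were adjusted by Benjamini-Hochberg over 13129 genes, with a threshold of 0.05. SE is the absolute log2 fold change over the square root of F. Log2 CPM used a prior count of 2. Single members were compared by exact two-sided permutation tests. Named genes were the 9 members, list genes with an unadjusted p under 0.05 (at most 4 per direction and list), genes overlapping a member, and the 3 nearest profiles per member. Some genes of these lists are not reported here. S1pr2, S1pr3, Foxo1, Cd69, Tbx21, Eomes, Cx3cr1, Gna12 and the named markers were added after their values were seen. DESeq2 1.42.0, limma 3.58.1 (voom with sample quality weights), other scalings, filters, covariates and subsets were alternatives, and the steps were tested on simulated data, where DESeq2 made a larger share of false calls than edgeR or voom. P values set a difference against the spread between these libraries, which may not be that between mice. The limit that a count of 0 allows (3 counts) was 0.119 to 0.542 CPM by library and covers counting error only.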

Additional observations from a re-analysis of the deposited data

Results flagged for a closer look

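Of 36 sets of libraries checked for 1 value far from the rest (18 of members, 18 of marker sums, in the 6 young and 5 middle-aged libraries), 3 were found, and chance alone gives about 1 in 20. All 3 were middle-aged female 2 among the 5 middle-aged libraries. It had NK cell markers of 753.2 CPM (its gap to the next library was 0.888 of the range), plasma cell markers of 366.4 CPM (0.808) and myeloid cell markers of 2858 CPM (0.918). The same library had the highest S1pr5 and Ccr2 and the lowest S1pr1, Ccr7 and Cxcr3 of the middle-aged group. Without it, the log2 difference was 1.77 for S1pr5, 0.32 for Ccr2, 0.11 for S1pr1, -0.09 for Ccr7 and 0.27 for Cxcr3.

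The age difference of Cxcr4 differed between sexes, by -1.66 (log2, females minus males, unadjusted p 0.02901 and adjusted p 0.9999 in edgeR's interaction test over 11 libraries). All middle-aged males were above and all middle-aged females below the young libraries of their sex, and other members were also separated by age within a sex. Young male 1 and young female 1, the shallowest libraries, had the lowest and the highest young value of Cxcr4. The Cxcr4 interaction did not pass the correction over all tested genes.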

How the results depend on the processing

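Of 323 values recomputed under 25 alternatives, 273 kept their direction and side of the threshold or stayed within 1.5 times the count. S1pr5, Cxcr6 and Ccr2 kept a higher middle-aged level in every alternative run. Genes called for age, 3 of 13129, became 112 with DESeq2, 136 with limma voom, 17 with at least 1 count in any library, 5 with at least 10 counts in every library, 5 with age alone, 6 in the libraries over 10000000 counts, 0 in males alone, 0 in females alone and 393 at an unadjusted p, and 1 to 4 with 1 library left out (1 without young male 2, young female 2, young female 3, middle-aged female 1 or middle-aged female 3). Members called, 0, became 1 with DESeq2, 2 with voom and 2 at an unadjusted p. Pathway genes called, 0, became 3 with voom and 6 at an unadjusted p. With 1 library left out both stayed at 0. With a replicate block shared by both sexes, 19 genes and 1 member (Cxcr6, adjusted p 0.04529, S1pr5 at 0.0549) were called, while the replicate block within sex called 0 members. No label says what a number shares. Deviations from group means, across genes, correlated at 0.0251 to 0.558 in the 15 pairs of libraries with the same number and at -0.508 to 0.397 in the 30 with different numbers, and 9 of 11 libraries correlated best with one of their own number. Not every same-numbered pair was over 0.1, so the numbers were not taken as a pairing. The pairs under 0.1 were of libraries numbered 2, which lay between the others by share of long genes. Pairs numbered 1 had 0.323 to 0.47 and pairs numbered 3 had 0.392 to 0.558. Whether a number marks a batch was not tested.

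The members near 0 changed sign. S1pr1 had -0.0204 with library size alone, -0.11 with voom, -0.22 in libraries over 10000000 counts, -0.14 in females and -0.11 to 0.11 with 1 library left out. Klf2 had -0.0270, -0.0828, -0.26, -0.47 and -0.20 to 0.17 in the same order. Cxcr4 had 0.10 with voom, 0.78 in males and -0.35 to 0.0896 with 1 left out. In males S1pr4 had 0.20 and Ccr7 0.11, and in females Cxcr3 had -0.11. The causes were not tested. With 2 to 3 libraries in each sex and age group, differences in 1 sex are imprecise, and young male 1 and young female 1 are the shallowest libraries.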
